A study of Mus musculus with 17 samples.

Results

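The desmosome genes described here are 10 of the 20572 genes in the count tables, taken by name: the desmogleins Dsg2 and Dsg3, the desmocollins Dsc2 and Dsc3, desmoplakin (Dsp), plakoglobin (Jup), the plakophilins Pkp1, Pkp2 and Pkp3, and Perp. All 10 had rows in the RNA and footprint tables and passed the filter on low counts in both. They were chosen with earlier results of these data known. The study asked which RNAs are direct targets of Musashi-2 (Msi2), an RNA-binding protein, in mouse keratinocytes. A spontaneously immortalized keratinocyte culture from newborn C57BL/6 skin, kept on inactivated NIH-3T3 J2 feeder fibroblasts for its first 3 passages, was infected with a lentivirus carrying a scrambled shRNA (control) or an Msi2 shRNA (knockdown), and puromycin was given at 2 ug/ml from 2 days after infection, for 2 days, before the cells were expanded. Polyadenylated RNA was sequenced in 3 control and 3 knockdown libraries, and ribosome footprints (RNA pieces that ribosomes shield from nuclease, here after cycloheximide) in another 3 and 3. Msi2 binding was mapped by HITS-CLIP, in which ultraviolet light (200 mJ/cm2) links the protein to RNA before immunoprecipitation, in 5 libraries of the same culture, for which the labels name no infection, made with RNase at 1x, 1:20 (a library labelled Low MW and another labelled Hi MW), 1:50 and 1:75. The labels describe a single spontaneously immortalized population, name no hairpin sequence, and do not state whether the replicates were grown or infected separately. A p-value here therefore reflects only how much those libraries varied, which may be technical variation.

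A desmosome is a patch of the cell surface that rivets an epithelial cell to its neighbour and ties the contact to the keratin filaments inside. Desmogleins and desmocollins are cadherins whose outer parts bind across the gap between cells. Plakoglobin and the plakophilins, armadillo-repeat proteins of the plaque, bind the cadherin tails, and desmoplakin links the plaque to keratins. Perp is a membrane protein of desmosomes and a target gene of p63 and p53. In the epidermis Dsg3, Dsc3 and Pkp1 are prominent in the lower and middle layers, whereas Dsg2, Dsc2 and Pkp2 are widespread in simple epithelia and heart. The 4 cadherin genes lie close together on chromosome 18, from the start of Dsc3 at 19960930 to the end of Dsg2 at 20604526 (RefSeq, GRCm38.p6), while Jup is on chromosome 11 (100368856 to 100397839), Pkp2 on 16 (16213345 to 16272712) and Pkp3 on 7 (141078229 to 141090511).

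The knocked-down gene was checked first. Msi2 footprints were at 17.1, 16.8 and 18.3 CPM (a gene's share of its library's counts, on TMM-scaled library sizes) in the control libraries and at 4.53, 0 and 5.12 CPM in the knockdown libraries, with no overlap between groups (log2 fold change -2.08 ± 0.41 (SE), edgeR's quasi-likelihood test, adjusted p = 0.000285). The 0 stood in the smallest library, where 3 counts, the limit that a count of 0 allows, are 6.02 CPM. Msi2 RNA was 7.32 ± 1.30 CPM in control and 6.02 ± 0.796 CPM in knockdown libraries (SD, n = 3), and its groups overlapped (adjusted p = 0.283). Gene counts per library ran from 9221566 to 26785876 in RNA and from 512256 to 2959625 in footprints. Of the 7 keratinocyte markers all were detected, with a summed RNA level of 15750 to 19673 CPM in control and 12985 to 14720 CPM in knockdown libraries. By gene, 3 of these 7 were lower (Krt5, Krt14 and Sfn) and 3 higher (Itga6, Itgb4 and Col17a1), and their footprint sums overlapped, at 20563 to 23039 CPM and 19224 to 21608 CPM. Of 10 fibroblast markers, which feeder cells would carry, 6 had no RNA read in any library, Col1a2, Col3a1 and Dcn among them, and the sum was 4.62 to 7.64 CPM and 9.13 to 10.4 CPM. The sums for 5 melanocyte markers (1.03 to 2.01 and 1.73 to 3.12 CPM), 5 immune markers (16.0 to 18.6 and 8.60 to 13.6 CPM) and 6 endothelial and muscle markers (4.56 to 5.98 and 9.21 to 13.2 CPM) were also low. Simple epithelium markers summed to 441 to 574 CPM in control and 493 to 531 CPM in knockdown libraries. By gene, 2 of these 5 were higher in RNA (Krt8 and Krt18) and 1 lower (Krt19). In footprints Krt8 and Krt18 were again higher, and the sums did not overlap, at 753 to 784 CPM in control and 841 to 917 CPM in knockdown libraries. The part of these marker shifts in the results was not tested.

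Msi2 CLIP peaks were listed in the 3' UTRs of 6 of the 10 genes. The deposited list of 3' UTR peaks holds 2671 peaks, called over the 5 CLIP libraries together, in 1199 genes, and 28 of them lie in Perp (7), Dsg3, Dsc2 and Dsc3 (5 each), Dsp and Pkp1 (3 each). Dsg2, Jup, Pkp2 and Pkp3 have none in that list. At least 1 peak was listed for 10.3% of the genes tested in RNA, and at least 3 peaks, which all 6 of these genes have, for 2.59%. Among genes with a mean control RNA of at least 50 CPM, 19.4% had a peak and 5.51% had 3 or more. That level is reached by 8 of the 10 genes, of which 6 have a peak. Jup and Pkp3, at 941 and 258 CPM of control RNA, reach it without a peak, and Dsg2 and Pkp2, at 17.5 and 10.1 CPM, do not reach it.

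In Dsc3 and Dsg3 the peaks form almost unbroken tracts. The Dsc3 peaks, on the minus strand of chromosome 18 between 19960975 and 19963574 (mm10), cover 98.9% of 2600 bases, with no gap above 13 bases. Their heights, the total over the 5 libraries given by the authors, run from 17 to 293, and the tallest, at 19962088 to 19963105, holds 7, 39, 79, 92 and 76 reads in CLIP libraries 1 to 5. The Dsg3 peaks, on the plus strand of chromosome 18 between 20539870 and 20543390, cover 96.3% of 3521 bases, and the tallest of these has a height of 347 and is 1196 bases long. RefSeq's GRCm38.p6 annotation ends Dsg3 at 20541310, so that peak crosses the annotated end and the last 2 peaks start 756 and 1030 bases past it, although the list assigns all of them to 3' UTRs of Dsg3 transcripts. Dsc2, between 20030635 and 20032406 on the minus strand, has its 2 tallest peaks (heights 148 and 96) on either side of a gap of 179 bases, the widest in a tract of 1772 bases of which 87.1% is covered. The density of reads was alike in these 3 genes, at 23.3, 21.0 and 22.2 reads per 100 covered bases for Dsg3, Dsc2 and Dsc3. These densities were not scaled to RNA level, which differed: mean control RNA was 174, 80.8 and 220 CPM in the same order.

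Perp and Dsp carry the most densely read tracts. At 602 and 945 CPM, they also had the highest control RNA of the desmosome genes with peaks, with gene length not taken into account. Reads were not scaled to RNA level. The 7 Perp peaks cover 99.2% of 1463 bases on the plus strand of chromosome 10, from 18855649 to 18857111, with 1944 summed reads or 134 per 100 covered bases. The 3 Dsp peaks cover 99.0% of only 813 bases on the plus strand of chromosome 13, from 38197767 to 38198579, with 1790 summed reads or 222 per 100 bases. By summed reads Perp and Dsp rank 3rd and 4th among the genes with a 3' UTR peak, but their 10 peaks are the ones among the 28 whose height is below the summed reads, and whether a read was counted in several peaks was not tested. By summed height, where Dsg3 ranks 5th, Dsc3 8th and Perp 10th, Dsp ranks 21st. Pkp1 is the sparse case: its 3 peaks, on chromosome 1 between 135871416 and 135873350, cover 25.5% of 1935 bases and hold 64 reads in all, for a rank of 300 by reads.

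**Figure D1:**
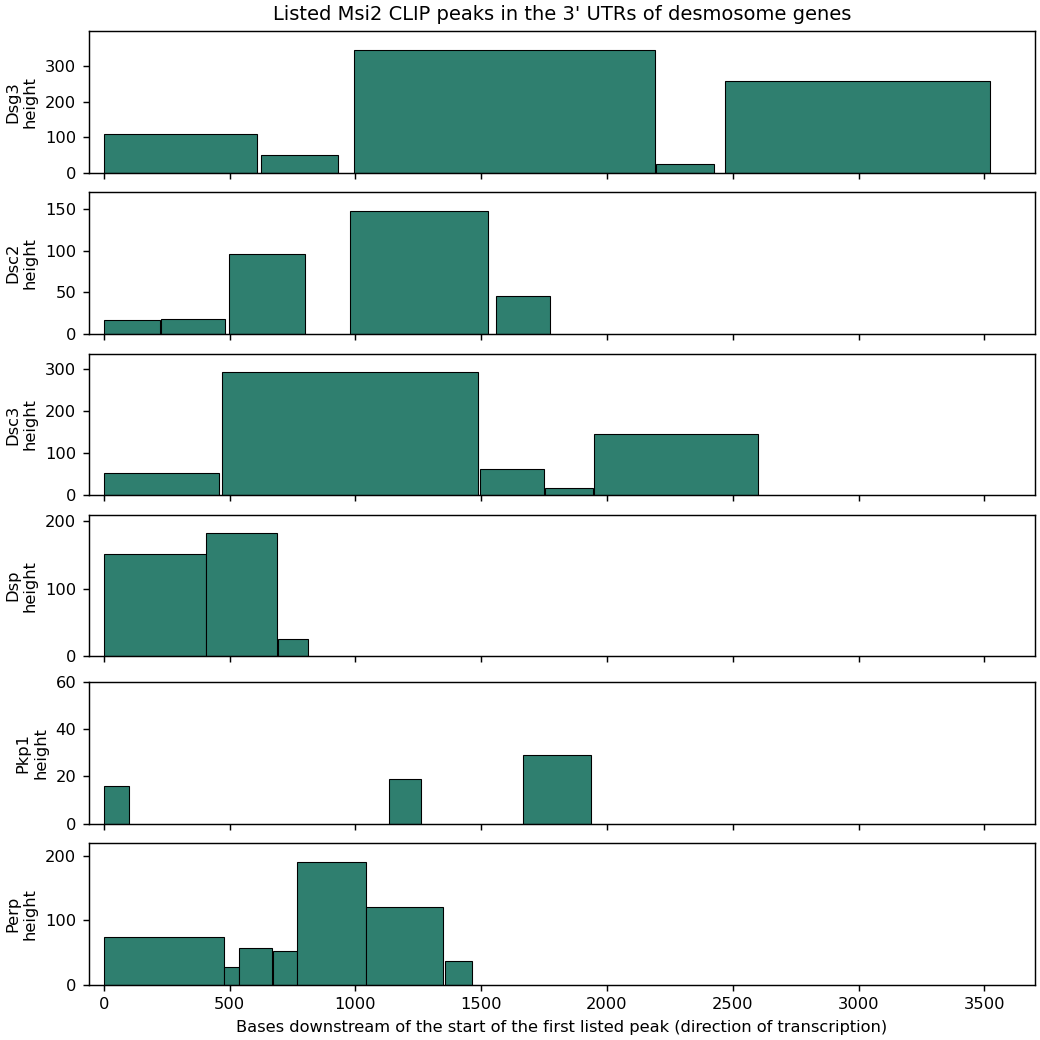
Listed 3' UTR peaks of the 6 desmosome genes that have any. The x axis is the distance in bases downstream of the first listed peak's start, the y axis the authors' peak height over the 5 CLIP libraries (scales differ between genes), and each bar spans 1 peak. The Dsg3, Dsc3, Dsp and Perp peaks lie close together, with no gap above 64 bases, whereas the 3 Pkp1 peaks lie apart.

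Outside the 3' UTR list, the list of all 4051 peaks holds 24 further peaks inside these genes on their own strand, and 17 of them are in Dsp. The Dsp peaks are spread from 903 to 16248 bases before the gene's end, have heights of 10 to 46, and hold 403 reads over 3165 covered bases, or 12.7 per 100 bases against 222 in the 3' UTR. That 222 rests on 1790 summed reads, whereas the Dsp 3' UTR peaks have heights of 25 to 182 and a summed height of 359. Whether a read was counted in several peaks was not tested. Dsg3 has 3 such peaks (39 reads), Perp 2 (42 reads) and Dsc3 1 (10 reads). Jup has a single peak of 29 bases and 11 reads at 100383245 to 100383273 on chromosome 11, 14389 bases before the gene's end. Dsg2, Pkp2 and Pkp3 have no peak in either list. Exon and coding annotation of these positions was not used here.

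By reads, Perp and Dsp took the largest shares among these genes at each RNase dilution, whereas by summed height over the 5 libraries Dsg3 (791) and Dsc3 (571) stood above Perp (561) and Dsp (359). The 28 peaks held 4.55, 5.90, 5.88, 5.59 and 5.91% of the reads in listed 3' UTR peaks of libraries 1 to 5, from 1954 such reads in the 1x library to 26026 in the 1:50 library. Perp held 1.79, 2.02, 2.09, 1.96 and 2.15%, a mean of 2.00 ± 0.139% (SD, n = 5). Dsp held 1.18, 2.25, 1.91, 1.73 and 1.82%, and was lowest in the 1x library, where it rests on 23 reads. Dsg3 held 0.768 ± 0.158%, Dsc3 0.629 ± 0.0832%, Dsc2 0.322 ± 0.0622% and Pkp1 0.0672 ± 0.0314% (SD, n = 5). The 5 libraries are not like replicates, since they differ in RNase, and no control immunoprecipitation was analysed here. Shares and heights were not scaled to RNA level.

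**Figure D2:**
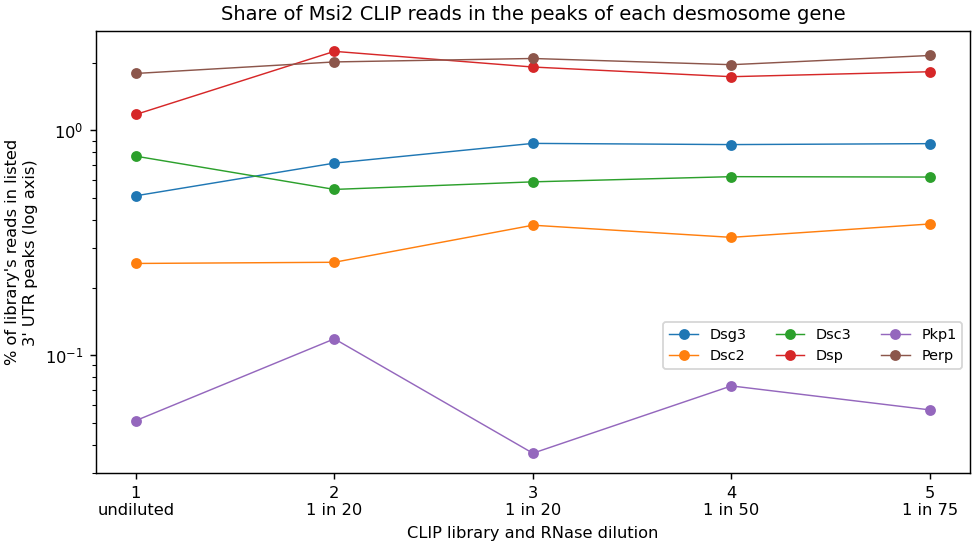
Percent of each CLIP library's reads in listed 3' UTR peaks (y, log axis) that fall in the peaks of each gene, by library and RNase dilution (x); points are libraries and lines only join a gene's points. Perp and Dsp lie highest in the 5 libraries and Pkp1 lowest, at 0.0366 to 0.118%.

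The desmosome genes did not all change alike when Msi2 was lowered: Dsc2 and Perp fell most, Pkp3 fell moderately, Pkp2 rose, and the RNA of the other 6 did not pass the test. In RNA 3 of 10 were lower and 1 was higher at an adjusted p under 0.05, while of the 11117 genes tested 43.8% were called, 21.7% lower and 22.0% higher. In footprints 5 of 10 were lower (Dsc2, Dsc3, Pkp1, Pkp3 and Perp) and 1, Pkp2, was higher, while of 8969 genes tested 16.1% were called, 7.38% lower and 8.76% higher. The median log2 fold change of the 10 was -0.20 in RNA and -0.40 in footprints, against 0.0040 and -0.011 over all genes tested. Passing or not, the change was negative for 8 of the 10 in RNA and for 9 in footprints. As the 10 were chosen with earlier results of these data known, these values are not a test of the set. Control and knockdown did not overlap for 5 of the 10 in RNA, 4 of them lower, and for 8 in footprints, 7 of them lower. Over all genes tested, groups without overlap made up 52.9% in RNA (26.2% with the knockdown lower) and 31.4% in footprints (15.4% lower). Without footprint knockdown replicate 1, or without replicate 3, only 2 of 10 were lower in footprints (350 and 386 of all genes, against 662), and once each RNA library's trend with the genomic span of genes was removed 5 of 10 were lower in RNA. RNA came from whole cultures, so fewer cells of a kind and less RNA per cell cannot be told apart.

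Of the cadherins, the desmocollin Dsc2 fell the most. Its RNA was 77.7, 64.2 and 101 CPM in the control libraries and 40.1, 50.3 and 34.4 CPM in the knockdown libraries. Every knockdown library was below every control library, although the control values were spread widely (80.8 ± 18.4 CPM, SD, n = 3). The log2 fold change was -0.96 ± 0.16 (SE; edgeR's quasi-likelihood test, adjusted p = 0.000312), a knockdown mean 48.5% below the control mean. Its footprints were at 311, 315 and 348 CPM in control and 145, 162 and 146 CPM in knockdown libraries, groups that lay far apart. The footprint change of -1.11 ± 0.14 (adjusted p = 9.34e-08) was the largest of the 10 genes, and 2.30% of all genes tested had a lower value. Both calls held in every alternative tried, with footprint values from -1.15 to -1.07.

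Dsc3, the desmocollin typical of the basal epidermis, had smaller log2 fold changes. Its RNA was 215, 168 and 277 CPM in control and 174, 195 and 164 CPM in knockdown libraries, and control replicate 2 lay among the knockdown libraries. The RNA change of -0.31 ± 0.15 did not pass (adjusted p = 0.108), though it passed without control replicate 2 (-0.48, adjusted p = 0.00540), with limma-voom (adjusted p = 0.0400), and after removal of the span trend (adjusted p = 0.0242). Without control replicate 3 it was -0.11 (adjusted p = 0.457). In footprints the control libraries stood at 1520, 1327 and 1800 CPM and the knockdown libraries at 1152, 1107 and 1132 CPM. These groups did not overlap, and Dsc3 footprints fell by 0.45 ± 0.13 on the log2 scale (adjusted p = 0.0137). That call was lost without control replicate 3 (-0.33, adjusted p = 0.0586), without knockdown replicate 1 (adjusted p = 0.0515), without knockdown replicate 3 (adjusted p = 0.0916), and without the shallowest footprint library of each group (-0.32, adjusted p = 0.0866). The shallowest libraries are control replicate 3 and knockdown replicate 2, so the last setting also leaves out control replicate 3.

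Neither desmoglein passed. Dsg3, the main desmoglein of cultured keratinocytes, had 167, 139 and 217 CPM of control RNA and 151, 182 and 144 CPM of knockdown RNA, with overlapping groups (-0.13 ± 0.15, adjusted p = 0.478). Its footprints were at 1348, 1426 and 2078 CPM in control and 1193, 1318 and 1248 CPM in knockdown libraries. These groups did not overlap, but control replicate 3 was far above the others, and the change of -0.36 ± 0.14 did not pass (adjusted p = 0.0727; 95% interval -0.65 to -0.08). It passed without footprint control replicate 1 (-0.48, adjusted p = 0.0388) or without footprint control replicate 2 (-0.45, adjusted p = 0.0393). Without footprint control replicate 3 the change was -0.15 (adjusted p = 0.454). It was -0.18 (adjusted p = 0.350) without the shallowest library of each group, a setting that also leaves out control replicate 3. Dsg2, found in simple epithelia, rests on few reads, with 17.2, 14.3 and 21.0 CPM of RNA in control and 16.6, 20.7 and 15.1 CPM in knockdown libraries. Its footprints were 45.2, 47.7 and 62.1 CPM against 47.3, 40.1 and 48.1 CPM. The log2 fold change of Dsg2 was 0.0050 ± 0.17 in RNA (95% interval -0.35 to 0.36) and -0.10 ± 0.19 in footprints (95% interval -0.49 to 0.28), and the groups overlapped in both. The Dsg2 footprint values rest on 20 to 142 reads per library.

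In the plaque, footprints of Pkp2 rose and those of Pkp1 and Pkp3 fell. Pkp2 RNA rose as well and was 11.5, 11.2 and 7.54 CPM in control and 15.7, 17.9 and 13.8 CPM in knockdown libraries, without overlap (0.63 ± 0.18, adjusted p = 0.0101). Its footprints were 9.22, 13.1 and 14.1 CPM in control and 22.7, 22.1 and 17.4 CPM in knockdown libraries, also without overlap (0.82 ± 0.29, adjusted p = 0.0476). The footprint call is fragile, as it rests on 10 to 45 reads per library and was lost in 10 of 16 alternatives, with DESeq2 among them (adjusted p = 0.214). The RNA call was lost only without knockdown replicate 2 (0.52, adjusted p = 0.0539).

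Pkp3, a plakophilin found throughout the epidermis, fell in both assays. Its RNA was 261, 275 and 237 CPM in control and 183, 203 and 212 CPM in knockdown libraries, and its footprints were 206, 183 and 195 CPM against 150, 138 and 137 CPM. The groups did not overlap in either, and the log2 fold changes were -0.37 ± 0.12 (adjusted p = 0.0149) and -0.44 ± 0.14 (adjusted p = 0.0238). The RNA call was lost without knockdown replicate 1 (-0.32, adjusted p = 0.0992) and with a replicate block (adjusted p = 0.0541). The footprint call was lost when control replicate 1 was left out (adjusted p = 0.0988) and when any knockdown library was, at adjusted p values of 0.0660, 0.0599 and 0.138 for replicates 1, 2 and 3. DESeq2 did not call it either (adjusted p = 0.0634).

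Pkp1, which stabilizes desmosomes in the epidermis, differed between the assays in its calls. Its RNA was 407, 376 and 405 CPM in control and 371, 420 and 348 CPM in knockdown libraries, with overlapping groups (-0.06 ± 0.12, adjusted p = 0.699). Its footprints were 1046, 1156 and 1113 CPM in control and 729, 876 and 798 CPM in knockdown libraries, and every knockdown library was lower. Pkp1 footprints fell by 0.47 ± 0.13 (adjusted p = 0.00821), a call that was lost without knockdown replicate 1 (-0.40, adjusted p = 0.0882) and also without replicate 3 of that group (-0.47, adjusted p = 0.0697). The change of the footprint-to-RNA ratio itself, the test of that difference, was -0.39 ± 0.18 and did not pass (unadjusted p = 0.0318, adjusted p = 0.363).

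Jup and Dsp, the plaque proteins common to all desmosomes, did not pass in either assay. Jup, which is shared with adherens junctions, had 935, 991 and 896 CPM of RNA in control and 809, 770 and 780 CPM in knockdown libraries. The groups did not overlap, but the change was small (-0.26 ± 0.12, adjusted p = 0.0857). The Jup footprints were 2518, 2744 and 2575 CPM against 2136, 2210 and 2221 CPM, again without overlap and without passing (-0.26 ± 0.12, adjusted p = 0.169). The RNA of Jup did pass without control replicate 3 (-0.30, adjusted p = 0.0367), with DESeq2 (adjusted p = 0.0247) and after removal of the span trend (adjusted p = 0.0274). Dsp RNA was 934, 799 and 1102 CPM in control and 835, 963 and 842 CPM in knockdown libraries (-0.10 ± 0.14, adjusted p = 0.566; 95% interval -0.39 to 0.19). Dsp footprints were 1097, 1164 and 1538 CPM against 1127, 1390 and 1171 CPM (-0.04 ± 0.14, adjusted p = 0.877; 95% interval -0.32 to 0.23). The groups overlapped in both assays for Dsp, whose 3' UTR holds the most densely read peaks of the 10 genes.

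Perp fell in both assays. Its RNA was 539, 644 and 622 CPM in control and 369, 381 and 347 CPM in knockdown libraries, a knockdown mean 39.2% below the control mean (-0.72 ± 0.12, adjusted p = 0.000193). Its footprints were 1711, 1944 and 1773 CPM in control and 1307, 1234 and 1198 CPM in knockdown libraries (-0.54 ± 0.13, adjusted p = 0.00213). In both assays the lowest control library was well above the highest knockdown library, and both calls held in every alternative tried, although without 1 library the footprint adjusted p rose as high as 0.0427.

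**Figure D3:**
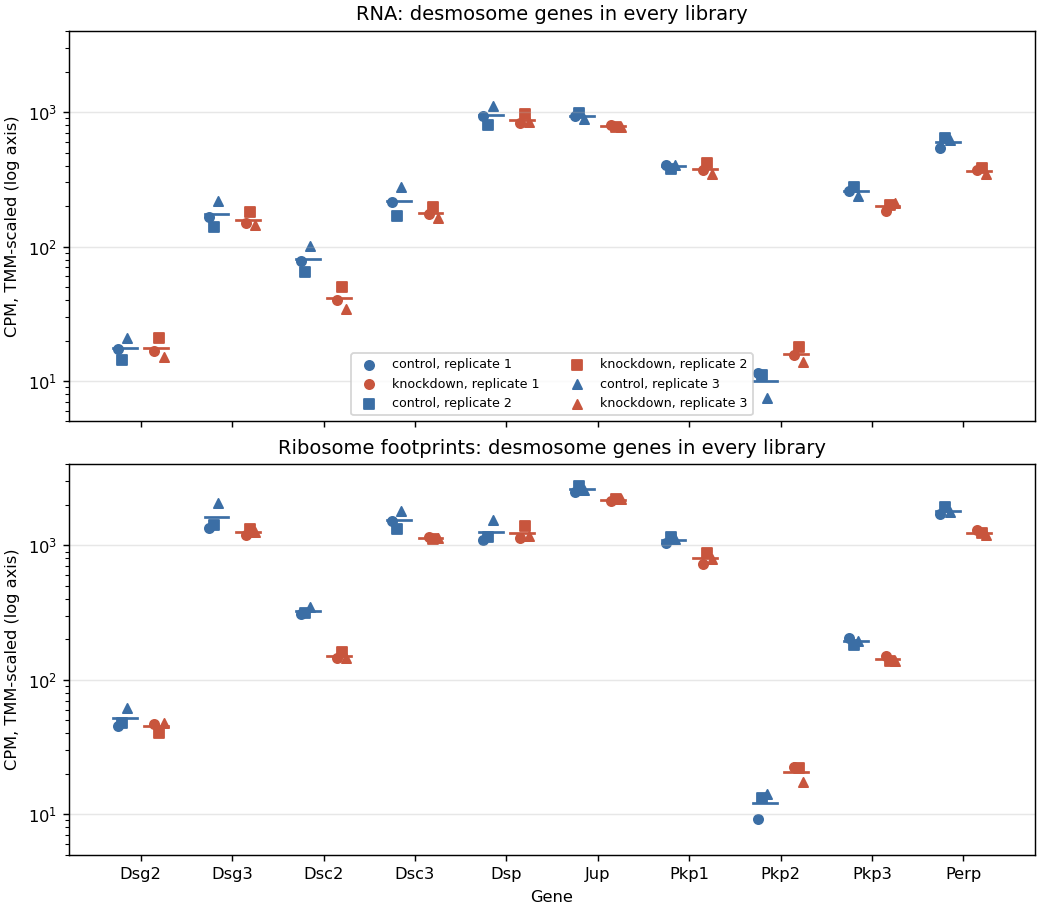
TMM-scaled CPM (y, log axis) of each gene (x) in every RNA library (top) and footprint library (bottom); blue marks are control and red marks knockdown libraries, the marker shape is the replicate number and short lines are means of 3 libraries. Dsc2, Jup, Perp and Pkp3 lie lower and Pkp2 higher in the knockdown in both panels, while Dsg2 and Dsp overlap in both. The lengths of genes were not taken into account, so heights are not to be compared between genes.

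**Figure D4:**
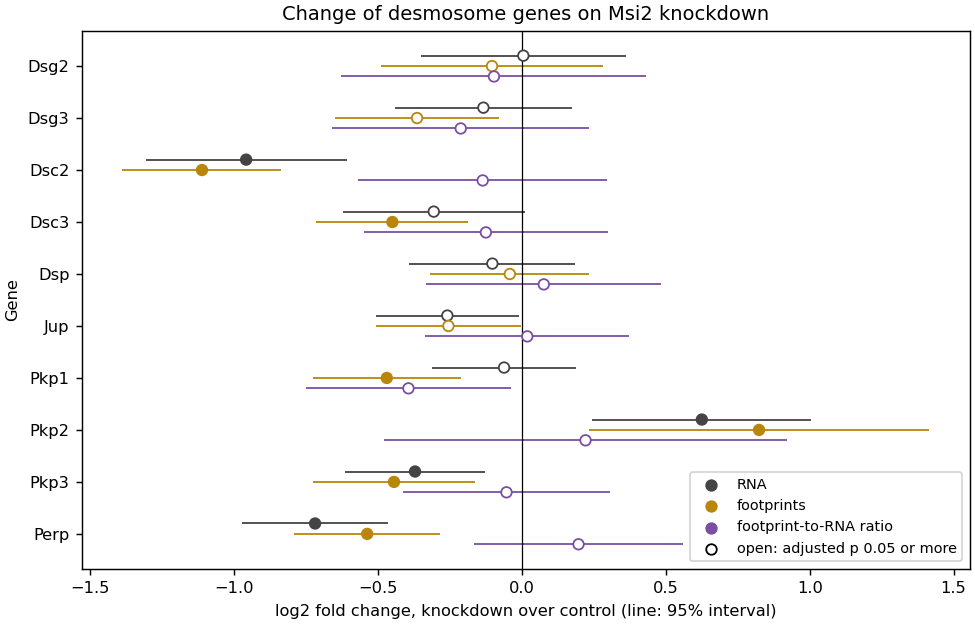
Log2 fold change, knockdown over control (x), of RNA, footprints and the footprint-to-RNA ratio for each gene (y), with approximate 95% intervals calculated from edgeR's F statistic. Filled points passed an adjusted p of 0.05. Filled points are RNA and footprints of Dsc2, Pkp2, Pkp3 and Perp and footprints of Dsc3 and Pkp1, and the 10 ratios are all open.

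Several of these genes had the same high and low libraries within a group. Among the control RNA libraries, replicate 3 was the highest and replicate 2 the lowest for Dsg2, Dsg3, Dsc2, Dsc3 and Dsp, while Jup, Pkp3 and Perp were highest in replicate 2. Among the knockdown RNA libraries, replicate 2 was the highest for 8 of the 10 genes and replicate 3 the lowest for 7. Among the control footprint libraries, replicate 3 was the highest for Dsg2, Dsg3, Dsc2, Dsc3 and Dsp. That library was the shallowest of its group, at 702602 counts against 2196405 and 2959625. RNA control replicate 3 and knockdown replicate 2 also had the largest share, in their groups, of reads that aligned to several places, at 17.4 and 24.5% against 13.4 and 14.9% in the other control and 19.8 and 21.2% in the other knockdown libraries. Its part in the levels of these genes was not tested. Without RNA control replicate 3 the changes of Dsg3 and Dsp RNA turned to 0.05 and 0.02.

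Translational efficiency, the ratio of footprints to RNA, was compared to ask whether ribosome occupancy changed beyond RNA. None of the 10 genes passed with edgeR's interaction test or in any alternative that gave it an adjusted p. DESeq2's Wald test gave none for Pkp2. By edgeR 1 had an unadjusted p under 0.05, Pkp1. The knocked-down gene, Msi2, did not pass this interaction test either (-1.79 ± 0.48, adjusted p = 0.117). Its ratio was 2.38 in control and 0.534 in knockdown, on 0 to 9 footprint reads per knockdown library. Of all 10821 genes tested, 0.203% passed, 0.129% higher and 0.0739% lower, which is 14 and 8 genes. Without RNA control replicate 3 these counts were 94 and 149, and without some other libraries they were 0. Leaving out RNA control replicate 3 also moved the changes of Dsg3, Dsc2 and Dsc3 to -0.49, -0.41 and -0.41, from -0.21, -0.14 and -0.13, with adjusted p values of 0.194, 0.256 and 0.230. In the main fit the changes of the 10 genes ran from -0.39 for Pkp1 to 0.22 for Pkp2, with a median of -0.08 (0.017 over all genes). The 95% intervals of the cadherins were -0.63 to 0.43 for Dsg2, -0.66 to 0.23 for Dsg3, -0.57 to 0.30 for Dsc2 and -0.55 to 0.30 for Dsc3, so changes of up to those sizes are not excluded.

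In the control cells themselves the ratio of footprint to RNA level differed strongly among desmosome genes. It was 9.28 for Dsg3 and 7.04 for Dsc3, values above those of 99.1 and 98.5% of 8918 genes tested in both assays, whose median was 1.14. Pairing each control footprint library with each control RNA library gave 6.21 to 14.9 for Dsg3 and 4.79 to 10.7 for Dsc3. Dsc2 (4.02), Perp (3.01), Dsg2 (2.96), Pkp1 (2.79) and Jup (2.78) came next. The range of Dsc2 over the pairings (3.10 to 5.43) lay just above those of Pkp1 (2.57 to 3.08) and Jup (2.54 to 3.06), while the ranges of Perp (2.66 to 3.61) and Dsg2 (2.16 to 4.35) overlapped all 3. Dsp (1.34) and Pkp2 (1.20) were near the median of all genes, and Pkp3 (0.755; range 0.663 to 0.869) was below it. The ratio compares 1 gene's footprints and RNA over the same coding sequence, so its length cancels, but the scale between the assays is set by library totals.

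The balance between related members was examined within a library, as a share of the summed reads of Dsg2 and Dsg3, of Dsc2 and Dsc3, or of Pkp1, Pkp2 and Pkp3. Dsc2 made up 26.5, 27.7 and 26.6% of the Dsc2 and Dsc3 RNA reads in control and 18.7, 20.5 and 17.4% in knockdown libraries. In footprints its share was 17.0, 19.2 and 16.2% in control and 11.1, 12.8 and 11.4% in knockdown libraries. Every knockdown share was lower than every control share, and the mean differences, knockdown minus control, were -8.09 percentage points in RNA and -5.68 in footprints. Pkp2 made up 1.70, 1.69 and 1.16% of the RNA reads of the 3 plakophilins in control and 2.76, 2.80 and 2.41% in knockdown libraries, and 0.922 ± 0.173% and 2.16 ± 0.344% of the footprint reads (SD, n = 3). The Pkp1 share of the reads of these 3 was 59.7 ± 2.84 and 63.8 ± 2.70% in RNA and 84.2 ± 1.29 and 83.1 ± 1.94% in footprints, and those of Pkp3 were 38.8 ± 2.59 and 33.6 ± 2.91%, and 14.9 ± 1.41 and 14.8 ± 1.68%, with overlapping groups. Dsg2 held 9.15 ± 0.289 and 9.89 ± 0.379% of the Dsg2 and Dsg3 RNA reads, without overlap, and 3.13 ± 0.197 and 3.49 ± 0.470% of footprint reads, with overlap. The two-sided exact permutation p was 0.1 for the 5 shares without overlap, the smallest that 3 against 3 libraries can give (adjusted p = 0.2 over 10 shares). With the other named genes of each subfamily in the sum as well, a choice made after seeing the data (Dsg1a, Dsg1b, Dsg1c and Dsg4, Dsc1, and Pkp4), the Pkp1 share of RNA was 52.3 ± 2.07 and 53.5 ± 2.08% and that of Pkp2 1.33 ± 0.286 and 2.23 ± 0.172% (SD, n = 3). In these sums Dsc2 and Pkp2 still did not overlap between groups in either assay, and the shares of Pkp3 in RNA and Pkp1 in footprints no longer overlapped either (34.1 ± 2.58 and 28.2 ± 2.57%, and 82.0 ± 1.20 and 79.7 ± 1.49%). Shares are of reads, not of molecules, as coding lengths were not used here.

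**Figure D5:**
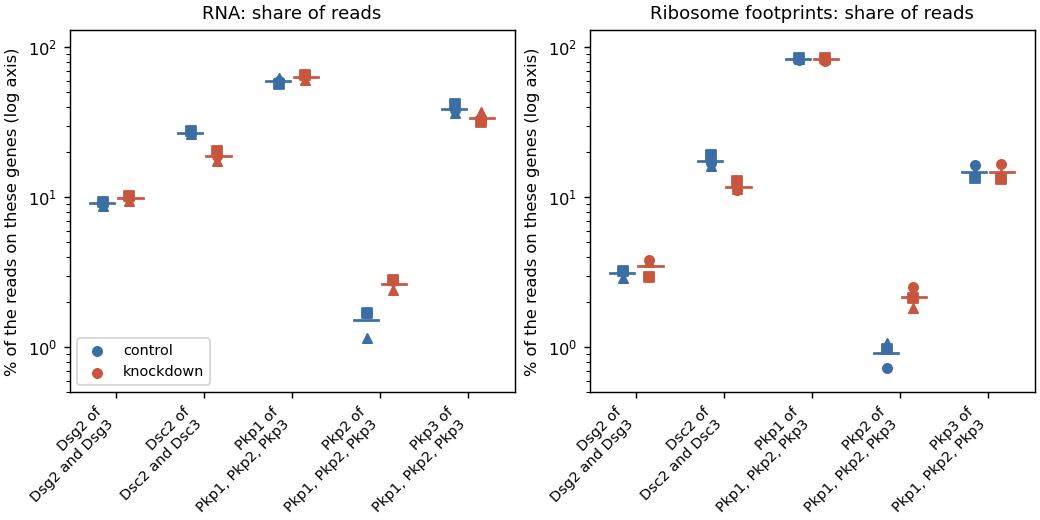
Percent of the summed reads of the genes named under each mark (y, log axis) that fell on 1 of them (x) in RNA (left) and footprints (right); blue marks are control and red marks knockdown libraries, the marker shape is the replicate number and short lines are means of 3 libraries. The Dsc2 share is lower and the Pkp2 share higher in every knockdown library of both assays.

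Other genes of the junction were counted from lists chosen with earlier results of these data known. Of 9 further desmosomal and plakin genes, 6 were tested in RNA, where 2 were higher and 3 lower, and 5 in footprints, where 1 was higher and 2 lower. For comparison with this and the following lists, 21.7% of all genes tested were lower and 22.0% higher in RNA, and 7.38 and 8.76% in footprints. Corneodesmosin (Cdsn), which holds the outermost layers together, fell from 57.6 ± 7.33 to 25.1 ± 5.13 CPM of RNA (SD, n = 3; -1.20 ± 0.15, edgeR adjusted p = 1.23e-05) and by 1.07 ± 0.19 in footprints. The desmogleins of the upper layers had little RNA: Dsg1b went from 5.94 ± 1.78 to 1.36 ± 0.183 CPM of RNA (adjusted p = 5.08e-05) and Dsg1a from 1.87 ± 0.927 to 0.182 ± 0.120 CPM (adjusted p = 0.000352). Dsg1a and Dsg1b are near-identical copies, so their counts are uncertain. Periplakin (Ppl), a plakin of the cornified envelope with 2 listed 3' UTR peaks, rose by 0.45 ± 0.13 in RNA (adjusted p = 0.0108) and by 0.45 ± 0.15 in footprints (adjusted p = 0.0287).

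Among the keratins, the filaments that desmoplakin anchors, 8 of 11 tested were lower and 2 higher in RNA, and 6 of 10 lower and 2 higher in footprints. Krt6b, a keratin of stressed epidermis, fell from 65.6 ± 9.59 to 10.5 ± 0.634 CPM of RNA (SD, n = 3; edgeR adjusted p = 2.87e-09). Krt16, of the same kind, fell from 586 ± 104 to 292 ± 32.2 CPM (adjusted p = 4.01e-05) and Krt15, a keratin of basal cells, from 27.7 ± 11.7 to 2.80 ± 2.85 CPM (adjusted p = 0.0209). Krt18, a keratin of simple epithelium, rose from 33.8 ± 6.39 to 65.9 ± 5.41 CPM (adjusted p = 4.34e-05). Of the regulators of desmosome assembly and turnover, 6 of 21 tested were higher and 4 lower in RNA, and 1 of 20 higher and 2 lower in footprints. The catenin Ctnnd1 rose by 0.97 ± 0.11 in RNA and by 0.58 ± 0.13 in footprints, and the protease inhibitor Spink5 (-1.61 ± 0.13 in RNA) and the vesicle GTPase Rab11a (-0.90 ± 0.12 in RNA) fell. All 3 have listed 3' UTR peaks, 9 in Ctnnd1 (181 reads), 4 in Spink5 (187 reads) and 1 in Rab11a (21 reads). Of 10 adherens junction genes, 2 were higher and 4 lower in RNA, and 2 higher and 4 lower in footprints, though not all the same genes. The afadin gene Mllt4 rose by 1.13 ± 0.13 and vinculin (Vcl) by 0.46 ± 0.13 in RNA, and P-cadherin (Cdh3) fell by 0.40 ± 0.11. In footprints Mllt4 and Vcl were higher as well, whereas Cdh3 did not pass (-0.35 ± 0.13, edgeR adjusted p = 0.0688). The nectin gene Pvrl1 passed in footprints (-0.54 ± 0.14, adjusted p = 0.00539) and not in RNA (-0.32 ± 0.14, adjusted p = 0.0801). At least 1 listed 3' UTR peak was found for 6 of the 10 adherens junction genes, 8 of the 22 regulators, 6 of the 12 keratins and 1 of the 9 further desmosomal genes, against 10.3% of all genes tested in RNA. These counts include genes not tested in RNA, where 10, 21, 11 and 6 of the lists were tested. Krt1, 1 of the 6 keratins with a peak, was not tested, at 0.181 CPM of control RNA. Among listed genes with at least 50 CPM of control RNA the counts were 4 of 7, 7 of 13, 5 of 8 and 1 of 4, against 19.4% of all such genes.

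Set beside each other, Msi2 peaks and changes on knockdown were not found in the same genes throughout. Of the 6 genes with 3' UTR peaks, Dsc2, Dsc3, Pkp1 and Perp fell in footprints and Dsg3 and Dsp did not pass. Of the 4 without, Pkp3 fell, Pkp2 rose, and Dsg2 and Jup did not pass. Over all genes with at least 3 listed 3' UTR peaks, 8.30% of 289 were lower in footprints and 14.2% of 288 in RNA. The shares over all genes tested were 7.38% in footprints and 21.7% in RNA. In RNA, Dsc2 and Perp were lower among the 6 genes with peaks and Pkp3 among the 4 without. With this few genes no test of peaks against changes was made.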

How the data were processed

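The members, the gene lists and the named genes (all members, Msi2, and in each list the 3 genes with the smallest RNA p and the 3 with the smallest footprint p) were chosen with earlier results of these data known. The deposited RNA and footprint tables hold raw counts of reads over the coding sequence per gene, made against mm10 with the tools TopHat, HTSeq and DESeq, which the submitters' processing notes list without versions; whether counting used strand is not given in the sources used here. The deposited peak lists hold a signal (total height, at least 10 in each region), a score (the number of libraries with reads, 4 or 5) and counts of overlapping reads per library; for CLIP the same notes list cutadapt and Novoalign, the peak caller is not given in the sources used here, and, per the description deposited with the files, peaks were called over all 5 libraries together. Lines of the RNA table that name no gene (no feature 32.3 to 35.2% of a library, ambiguous 0.175 to 0.228%, several places 13.4 to 24.5%) stayed out.

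Genes passed edgeR's filterByExpr (minimum count 10, minimum total 15). TMM factors and edgeR's robust quasi-likelihood test (edgeR 4.0.16 in R 4.3.3) were then applied, with p-values adjusted over all genes tested by Benjamini-Hochberg and a threshold of 0.05, to RNA and footprints apart and to translational efficiency as the interaction over 12 libraries. Fold changes are log2, knockdown over control. The standard error was calculated as the absolute fold change divided by the square root of edgeR's F statistic, and the 95% interval from that error. Both are therefore approximate. Shares were tested with SciPy 1.17.1 by exact permutation; the planned division by coding length was not done, as no coding lengths were given, and reads were used. Gene ends came from RefSeq GRCm38.p6. Peak sequences are not shown, as no genome was used here. Footprint libraries of 512256 to 2959625 counts limit the precision of low genes. Alternatives were DESeq2 1.42.0 (size factors, Wald test), upper-quartile factors, limma-voom (limma 3.58.1), other filters, a replicate block, removal of the span trend (loess, span 0.5), 1 fit over 12 libraries, leaving out libraries, and other peak sets.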

Additional observations from a re-analysis of the deposited data

How the results depend on the processing

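Dsc2 and Perp were lower, with the call kept, in all 15 alternatives for RNA and all 16 for footprints. With the span trend removed 5 members were lower in RNA; leaving out single libraries gave 2 to 4 lower and 0 to 1 higher. In footprints single libraries left out gave 2 to 6 lower and 0 to 1 higher, and 0 were higher with upper-quartile factors, DESeq2's Wald test, no filter, the span trend removed or 1 fit over 12 libraries. Over all genes, DESeq2's Wald test called 481 higher and 373 lower in footprints (786 and 662 in the main fit), and single libraries left out gave 463 to 885 and 350 to 749. For translational efficiency the main fit called 14 higher and 8 lower of all genes. Other settings called 13 lower (DESeq2 size factors), 5 and 13 (upper-quartile factors), 60 and 38 (DESeq2's Wald test), 52 and 14 (limma-voom), 46 and 78 (no filter), 3 higher (10 CPM in 3 libraries), 29 higher (span trend removed), 7 higher (when each group lost its shallowest footprint library), and 0 to 94 and 0 to 149 with single libraries left out. No setting that gave a member an adjusted p there called it.

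The sign of values that had not passed turned for Dsg2 RNA (-0.00041 with DESeq2 size factors, -0.00098 with its Wald test, -0.035 with limma-voom, -0.0056 with no filter, -0.10 with the span trend removed, and -0.14 to 0.14 with single libraries left out), Dsg3 RNA (-0.28 to 0.048) and Dsp RNA (-0.22 to 0.018). It turned for footprints of Dsp (0.0012 with limma-voom, 0.023 without the shallowest libraries, -0.14 to 0.11 with single libraries left out) and Dsg2 (0.035 without the shallowest libraries). It turned for the translational efficiency of Jup (-0.031 with DESeq2 size factors, -0.032 with its Wald test, -0.046 with upper-quartile factors and with no filter, -0.074 at 10 CPM, -0.094 to 0.069 with single libraries left out), Dsp (-0.016 at 10 CPM, -0.13 to 0.21), Dsg2 (0.022 with limma-voom, 0.046 without the shallowest libraries) and Dsc3 (0.0044 without the shallowest libraries). The cause was not tested.

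Whether the replicate numbers pair the libraries was not settled. In RNA, same-numbered control and knockdown libraries deviated from their group means with correlations of 0.0573, -0.276 and -0.227. In footprints these were 0.0503, 0.0291 and -0.00252. The highest RNA values were 0.305, for control 3 with knockdown 2, and 0.241, for control 2 with knockdown 3. Deviations from a mean of 3 libraries offset one another, so these correlations cannot decide on pairing. With a replicate block, members called were 1 higher and 2 lower in RNA and 1 higher and 5 lower in footprints, Pkp3 RNA did not pass (adjusted p = 0.0541), and 8 genes in all were higher for translational efficiency. The difference of the Pkp3 share of footprints of Pkp1, Pkp2 and Pkp3, -0.06 percentage points, ran from -0.985 to 0.673 with single libraries left out. Adding the other named genes of each subfamily to the sums, a choice made after seeing the data, kept the sign of all 10 share differences. Of the 28 peaks, 18 had reads in all 5 libraries, and 52 peaks lay in the members when the list of all peaks was used. Footprints of Dsg2 and Pkp2 rest on 10 to 142 reads per library, which limits what can be detected for them.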
